A study of Mus musculus with 24 samples.

Results

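Cholesterol is built from acetyl-CoA by a chain of enzymes in the cytosol and endoplasmic reticulum, and 4 genes of that chain, Mvd, Fdps, Fdft1 and Hsd17b7, are described here in mouse muscle that lost the histone chaperone gene Hira from its fibres. All array rows annotated to these symbols were taken, which gave 5 rows for the 4 genes (2 for Fdft1, 1 for each other gene) among the 26423 rows and 17742 named genes of the table. The 4 genes were chosen by their difference between knockout and control muscle in these same data, so that difference is described here without a test. The knockout was compared with the control in the tibialis anterior, a fast muscle of the lower hind limb, at 6 months of age. Control animals had the genotype Myf6 cre/+; Hira flox/+ and knockout animals Myf6 cre/+; Hira flox/-, with strains C57BL6/J and 129S1/SvImJ given for both. There were 4 animals per group, and the RNA of each was hybridised 3 times, which gave 24 arrays. Cre recombinase was expressed from the Myf6 locus, which is active in muscle fibres, in both groups. By genotype, control fibres kept 1 intact copy of Hira, and knockout animals carried the null copy in all of their cells.

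In the pathway, acetyl-CoA units are joined to form mevalonate, which is phosphorylated and then decarboxylated by the product of Mvd to isopentenyl diphosphate, the isoprene unit. Fdps, farnesyl diphosphate synthase, condenses these units into farnesyl diphosphate, a branch point from which prenylated proteins, dolichol, ubiquinone and haem A are also made. Fdft1, squalene synthase, joins farnesyl units head to head and commits them to sterols, and Hsd17b7 encodes the 3-ketosteroid reductase that acts in the removal of methyl groups from the sterol ring. Genes of the pathway are classical targets of SREBP-2, a transcription factor encoded by Srebf2, which is released from the membrane when sterols run low and which works together with NF-Y, a factor that binds CCAAT boxes.

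A 250-base window upstream of the annotated start was read from RefSeq (build GRCm38.p6) for Mvd and Hsd17b7, the 2 members with higher levels in the knockout, since their upstream letters can be set side by side. The table held windows for these 2 of the 4 members. The window of Srebf2, whose product regulates the pathway, is shown for comparison. Bases are given 5′ to 3′ on the strand of the gene, ending at the base before the start, and capitals mark CCAAT on either strand (CCAAT or ATTGG) and the sterol response core TCACNCCA on either strand.
Mvd (chr8:122443423-122443672, minus strand): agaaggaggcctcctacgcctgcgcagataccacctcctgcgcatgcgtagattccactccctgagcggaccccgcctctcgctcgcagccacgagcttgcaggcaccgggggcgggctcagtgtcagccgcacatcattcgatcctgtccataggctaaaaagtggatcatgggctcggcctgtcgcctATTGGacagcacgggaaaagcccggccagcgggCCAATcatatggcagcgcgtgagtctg
Hsd17b7 (chr1:169969206-169969455, minus strand): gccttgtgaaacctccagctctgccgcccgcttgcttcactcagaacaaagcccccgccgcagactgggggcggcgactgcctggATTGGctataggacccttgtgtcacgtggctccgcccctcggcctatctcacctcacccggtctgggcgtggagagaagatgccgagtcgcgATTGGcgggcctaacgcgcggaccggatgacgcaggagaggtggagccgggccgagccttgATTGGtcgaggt
Srebf2 (chr15:82147019-82147268, plus strand): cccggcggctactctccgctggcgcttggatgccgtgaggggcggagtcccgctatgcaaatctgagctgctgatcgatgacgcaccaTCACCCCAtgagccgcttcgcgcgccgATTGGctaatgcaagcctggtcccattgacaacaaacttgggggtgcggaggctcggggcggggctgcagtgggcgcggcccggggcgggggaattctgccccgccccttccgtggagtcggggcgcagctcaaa
The window of Mvd held 2 CCAAT matches, starting 60 and 27 bases before the start. That of Hsd17b7 held 3, at 165, 73 and 12 bases. At least 1 CCAAT match stood in 33.8% of all 32851 windows of this length, and in a window of 11 of the 12 other measured enzymes of the pathway that have one. The GC box GGGCGG, searched on both strands, occurred once in the Mvd window and 3 times in that of Hsd17b7, in 32.7% of all windows and in 10 of those 12 enzymes; it did not share bases with the CCAAT matches of these 2 genes. The letters TCACNCCA were absent from both windows and occurred in that of Srebf2, 162 bases before its start. They occurred in 3.67% of all windows and in 1 of those 12 enzymes. A match is a string of letters and not a measured binding site.

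Mvd and Hsd17b7 were higher in knockout than in control muscle, and Fdps and Fdft1 were lower. In each of the 5 rows all 4 knockout animals lay beyond all 4 control animals. Of all genes tested, 17.5% had groups that did not overlap, 7.24% with the knockout higher and 10.2% with it lower. By limma with Benjamini-Hochberg adjustment over all genes, 9.28% of genes passed at 0.05, 4.28% higher and 5.01% lower in the knockout. The balance turned under cyclic loess, with 1309 genes higher and 1154 lower. The share of all genes with an unadjusted p under 0.05 is not given, so counts at that cut stand below without a background. Insig1, at an unadjusted p of 0.0467, had an adjusted p of 0.2 (limma), so a gene at that cut can be far from passing. As the 4 genes were selected on this comparison, nothing is read from their own place in these shares. Levels are log2 of the array intensity, averaged over the 3 hybridisations of an animal, and levels of different rows are not comparable with each other. In RNA of whole muscle, fewer cells of a type and less RNA per cell cannot be told apart.

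Mvd stood at 9.77, 9.88, 9.48 and 9.78 (log2) in control animals 1 to 4. In knockout animals 1 to 4 it stood at 10.58, 10.73, 10.79 and 11.05. The lowest knockout animal was 0.70 above the highest control animal, the widest gap of the 4 genes, and control animal 3 lay below the other controls. The means were 9.73 ± 0.17 (SD, n = 4) and 10.79 ± 0.20, or intensities of 847 and 1766. The difference of 1.06 (95% interval 0.76 to 1.36) is 2.08-fold. All 12 knockout arrays lay above all 12 control arrays, and the difference was 1.10, 0.95 and 1.13 in hybridisations 1, 2 and 3. The animal numbers in the labels fall into a lower block (animals 1 and 2 of each group) and a higher block (animals 3 and 4), with no date given for either. The Mvd difference was 0.82 in the lower and 1.30 in the higher block, each with 2 animals per group. The other 3 genes ran the same way in both, with 0.59 and 0.52 for Hsd17b7, -0.46 and -0.61 for Fdps and -0.58 and -0.53 for Fdft1.

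Hsd17b7, the other gene with a higher level, varied least among animals. The control animals stood at 11.51, 11.44, 11.36 and 11.53 (log2). The knockout animals stood at 12.01, 12.11, 11.93 and 12.01. The lowest knockout animal was 0.39 above the highest control animal, a gap wider than the range of either group. The means were 11.46 ± 0.077 (SD, n = 4) and 12.01 ± 0.075, a difference of 0.55 (95% interval 0.32 to 0.78) or 1.47-fold. Again all 12 knockout arrays lay above all 12 control arrays.

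Fdps was lower in the knockout. Its control animals stood at 10.92, 10.92, 10.78 and 11.08 (log2), and its knockout animals at 10.41, 10.52, 10.12 and 10.53. Knockout animal 3 was the lowest and the groups were 0.26 apart. The means of 10.93 ± 0.12 (SD, n = 4) and 10.39 ± 0.19 differed by -0.53 (95% interval -0.81 to -0.25), or 1.45-fold. Single hybridisations were less clear, as 11 of 12 knockout arrays lay below every control array.

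Fdft1 was measured by 2 rows that ran the same way and differed in size. On the brighter row the control animals stood at 14.15, 14.50, 14.11 and 14.06 (log2) and the knockout animals at 13.67, 13.82, 13.54 and 13.58. Control animal 2 was the highest, and the groups were 0.24 apart. The means of 14.20 ± 0.20 (SD, n = 4) and 13.65 ± 0.13 differed by -0.55 (95% interval -0.84 to -0.27), or 1.47-fold, and without control animal 2 by -0.45. On this row 10 of 12 knockout arrays lay below every control array. On the dimmer row the control animals stood at 7.76, 7.62, 7.66 and 7.81 and the knockout animals at 7.57, 7.23, 7.27 and 7.36. The groups there were 0.049 apart, less than the SD of 0.22 between hybridisations of an animal, and 7 of 12 knockout arrays lay below every control array. Its difference was -0.36, from an intensity of 210 to 164, where 125 is the highest 5th percentile of any array and so marks the dim end of the scale.

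**Figure D1:**
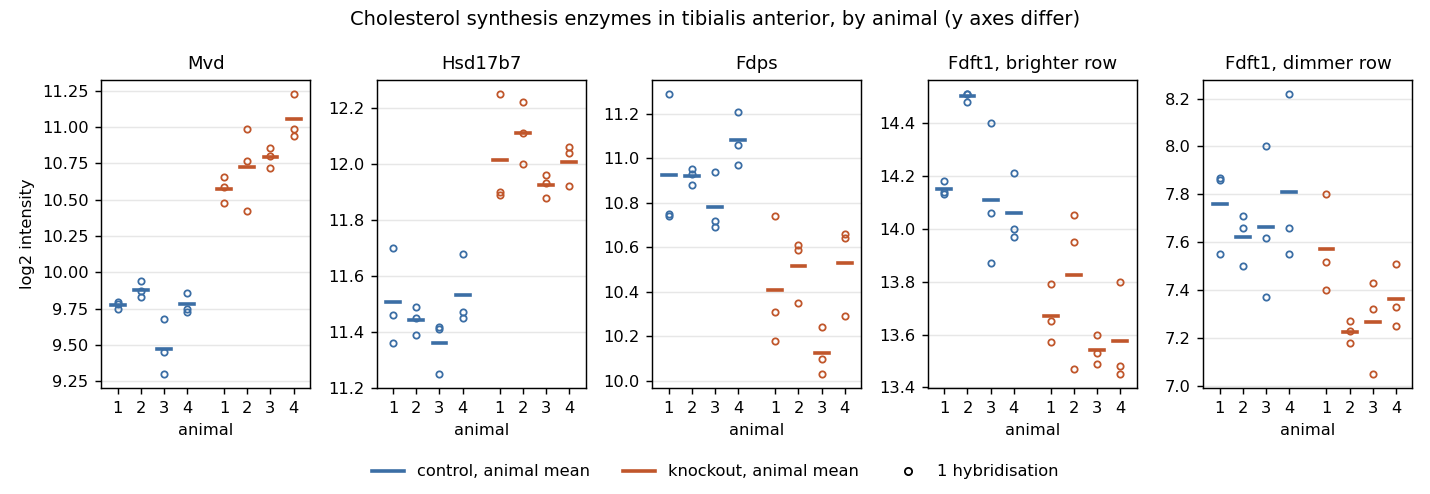
Log2 intensity (y axis, a separate range for each panel) of the 5 rows in each animal (x axis, control animals 1 to 4 in blue and knockout animals 1 to 4 in orange); open circles are the 3 hybridisations of an animal and bars their mean. Knockout bars lie above all control bars for Mvd and Hsd17b7 and below all control bars for Fdps and both rows of Fdft1, with the narrowest gap, 0.049, on the dimmer Fdft1 row.

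The 4 genes did not take a common direction. Mvd, at the end of the mevalonate segment, was higher, while Fdps and Fdft1, which follow it on the way to squalene, were lower. Between them stand the isomerases that interconvert the isoprene units: Idi1 differed by 0.14 (95% interval -0.16 to 0.45) and Idi2 by -0.19 (-0.53 to 0.16), and neither passed the test. Sqle, which oxidises squalene directly after the Fdft1 step, differed by 0.25 (-0.11 to 0.62; limma, adjusted p = 0.378). Hsd17b7 acts late in the pathway, between Nsdhl (-0.11, interval -0.42 to 0.21) and Ebp.

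Of 18 other enzymes of the pathway that were listed, 13 were measured, and the rest were not analysed here. These 13 are the genes that were left after the 4 had been chosen. By limma 0 of them rose and 1 fell, and 1 had an unadjusted p under 0.05. Ebp, the isomerase that moves the double bond of the sterol ring, was the gene that fell, by 1.38-fold. It stood at 12.99, 13.18, 12.97 and 12.99 (log2) in control and at 12.75, 12.63, 12.41 and 12.47 in knockout animals, which do not overlap. The difference was -0.47 ± 0.12 (SE; limma, adjusted p = 0.0315). The call was lost without any 1 of 6 animals, with adjusted p (limma) between 0.0551 and 0.105. These were the 4 control animals and knockout animals 3 and 4.

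The other 12 enzymes did not pass, and their differences lay between -0.24 and 0.25 on the log2 scale. In the mevalonate segment the kinases Mvk and Pmvk, which act just before Mvd, differed by 0.12 (95% interval -0.12 to 0.35) and -0.16 (-0.41 to 0.088). Among the cyclising and ring-trimming enzymes Lss, lanosterol synthase, differed by 0.23 (-0.10 to 0.56), and the demethylase Msmo1 by -0.24 (-0.57 to 0.10). The sterol reductases Tm7sf2 and Lbr differed by -0.039 and -0.074. At the last steps Sc5d, the sterol desaturase, differed by 0.14 (-0.20 to 0.49) and the reductase Dhcr7 by 0.12 (-0.17 to 0.41). The median of the 13 was -0.039, against -0.066 over all genes, and 6 were positive and 7 negative.

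**Figure D2:**
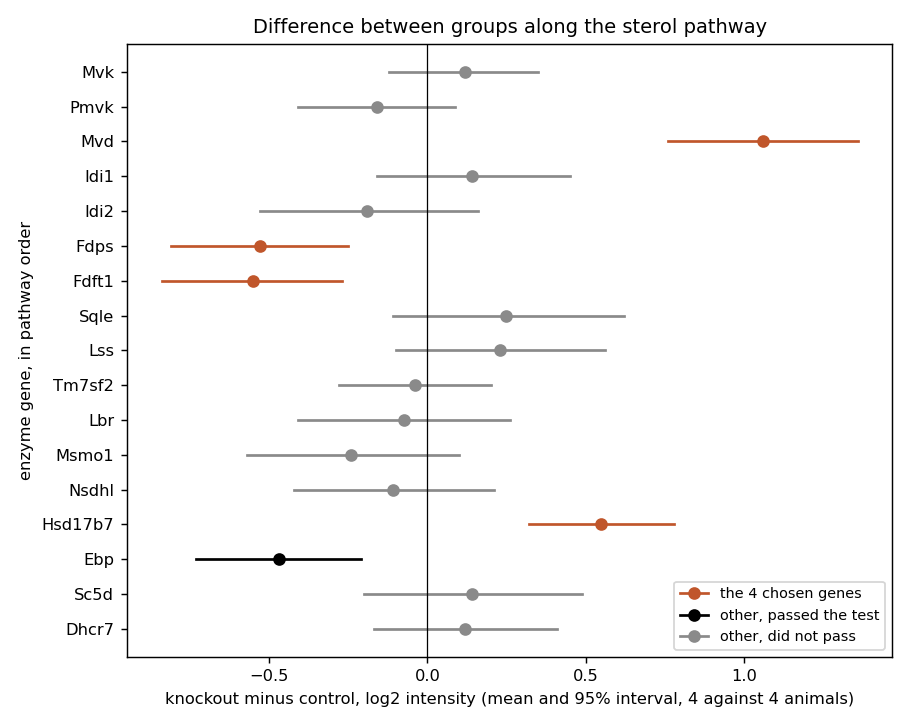
Knockout minus control in log2 intensity (x axis) for the 17 measured enzymes, ordered from mevalonate kinase at the top to the last sterol reductase; points are differences of means of 4 against 4 animals and lines their 95% intervals from limma. Mvd (1.06) and Hsd17b7 (0.55) lie right of 0 and Fdps (-0.53), Fdft1 (-0.55) and Ebp (-0.47) left of it, while the intervals of the 12 others cross 0. Mvd, Hsd17b7, Fdps and Fdft1 were chosen by this difference, so their intervals lying off 0 is not a result.

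Among 12 measured genes of sterol sensing and its control, of 15 listed, 0 rose and 2 fell by limma, and 3 had an unadjusted p under 0.05. Srebf2 stood at 11.47 ± 0.070 (log2; SD, n = 4) in control and at 11.06 ± 0.069 in knockout animals. The lowest control animal (11.37) lay above the highest knockout animal (11.15), so the groups did not overlap. Srebf2 fell 1.32-fold (-0.40 ± 0.10, SE; limma, adjusted p = 0.0346), although the call was lost whichever of the 8 animals was left out (adjusted p, limma, 0.0508 to 0.0903). Nr1h3, which encodes the oxysterol receptor LXR alpha, fell 1.55-fold, from 11.88 ± 0.14 to 11.25 ± 0.19 (SD, n = 4; limma, adjusted p = 0.0126), and kept its call without any single animal. Insig1, which holds SREBP in the membrane when sterols are plentiful, differed by -0.27 (95% interval -0.54 to -0.0047; limma, adjusted p = 0.2), and Nr1h2, the gene of LXR beta, by 0.42 (limma, adjusted p = 0.297). Srebf1, the gene of the SREBP that mainly drives fatty acid synthesis, stood at 10.02 in control and 10.03 in knockout muscle, and Scap, the escort of SREBP, at 12.76 and 12.80. The median of the list was 0.018.

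Genes that bring in, move or store cholesterol went in both directions. Of 18 measured, from 22 listed, 1 rose and 1 fell by limma, with 5 at an unadjusted p under 0.05 and a median of -0.088. Npc1, which exports cholesterol from lysosomes, stood at 12.92, 12.86, 12.01 and 12.64 (log2) in control and at 12.12, 11.55, 11.76 and 11.58 in knockout animals. Control animal 3 lay within the knockout range, so the groups overlapped. Npc1 fell 1.81-fold (-0.86 ± 0.20, SE; limma, adjusted p = 0.0248), a call lost when control animal 1 or 4 or knockout animal 2, 3 or 4 was left out (limma, adjusted p 0.0533 to 0.0798). Soat1, the acyltransferase that esterifies cholesterol for storage, stood at 7.59, 6.54, 7.20 and 7.34 in control and at 7.57, 7.86, 8.88 and 8.45 in knockout animals. Its groups overlapped at knockout animal 1. Soat1 rose 2.03-fold (1.02 ± 0.29, SE; limma, adjusted p = 0.0495), from an intensity of 144, near the dim end, to 292. That call was kept without knockout animal 1 (adjusted p, limma, 0.0254) and lost without any other single animal (0.063 to 0.119). The efflux transporter Abcg1 differed by 0.49 (limma, adjusted p = 0.119) and by 0.14 on its other row, and the lipoprotein receptor Vldlr by -0.36 (limma, adjusted p = 0.168).

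A further list, called isoprenoid users below, held genes of the routes from farnesyl diphosphate to products other than sterols. It includes genes that act after the isoprenoid is attached and do not draw on farnesyl diphosphate themselves, such as Coq7 and Coq9. Of 22 listed, 21 were measured, of which 3 fell and 0 rose by limma, with 11 at an unadjusted p under 0.05. Coq7, a hydroxylase of ubiquinone synthesis, stood at 15.29, 15.39, 15.13 and 15.15 (log2) in control and at 14.23, 14.18, 13.98 and 14.20 in knockout animals. The groups were well separated, and Coq7 fell 2.14-fold (-1.09 ± 0.11, SE; limma, adjusted p = 0.00023). Coq9, a lipid-binding partner of that enzyme, fell 1.46-fold (limma, adjusted p = 0.0155). Ggps1, which adds an isoprene unit to farnesyl diphosphate and so uses the product of Fdps, fell 1.38-fold (-0.46 ± 0.11, SE; limma, adjusted p = 0.0253), with -0.21 on its other row. The Coq9 call was lost without knockout animal 3 (adjusted p, limma, 0.0583), and that of Ggps1 without control animal 1, 2 or 4 or knockout animal 3 or 4 (0.0507 to 0.0858). Dhdds, a subunit of the dolichol-making prenyltransferase, differed by 0.55 and did not pass (limma, adjusted p = 0.0577). The median of this list was -0.18.

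Genes of fatty acid and lipid synthesis and its control, many of which SREBP-1 is known to drive, were measured for 15 of 17 listed. By limma 2 rose and 2 fell, and 7 had an unadjusted p under 0.05. Pnpla3, a lipid-droplet acyltransferase and lipase, rose 2.63-fold (limma, adjusted p = 0.0129; 1.39 on the log2 scale and 0.64 on its other row), and Thrsp, a nuclear protein of lipogenic tissue, 1.99-fold (limma, adjusted p = 0.00591). Lpin1, a phosphatidate phosphatase, fell 1.48-fold (limma, adjusted p = 0.00746) and Mlxipl, the carbohydrate-response factor ChREBP, 1.38-fold (limma, adjusted p = 0.0459). The Mlxipl call was lost without any single animal other than control animal 4 (adjusted p, limma, 0.0672 to 0.111). The median was -0.19. Of 10 measured relatives of Hsd17b7 in the 17-beta-hydroxysteroid dehydrogenase family, from 11 listed, 0 rose and 1 fell by limma, with 5 at an unadjusted p under 0.05. Hsd17b10, a mitochondrial enzyme of isoleucine breakdown and tRNA processing, fell 1.38-fold (limma, adjusted p = 0.0405), a call lost without any single animal other than control animal 3 (0.0585 to 0.113). Hsd17b4 differed by -0.48 (limma, adjusted p = 0.0828), Hsd17b12 by -0.28 (0.143) and Hsd17b11 by -0.30 (0.163), all opposite in sign to Hsd17b7 at 0.55. Of 8 listed enzymes of oxysterol synthesis and breakdown 2 were measured: Ch25h fell at least 1.59-fold to a dim level (limma, adjusted p = 0.0348; -0.68 on the log2 scale and -0.39 on its other row; adjusted p 0.146 with the rows averaged; lost without control animal 1, 3 or 4 or knockout animal 2 or 3, 0.0601 to 0.0997), and Hsd3b7 differed by -0.016.

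**Figure D3:**
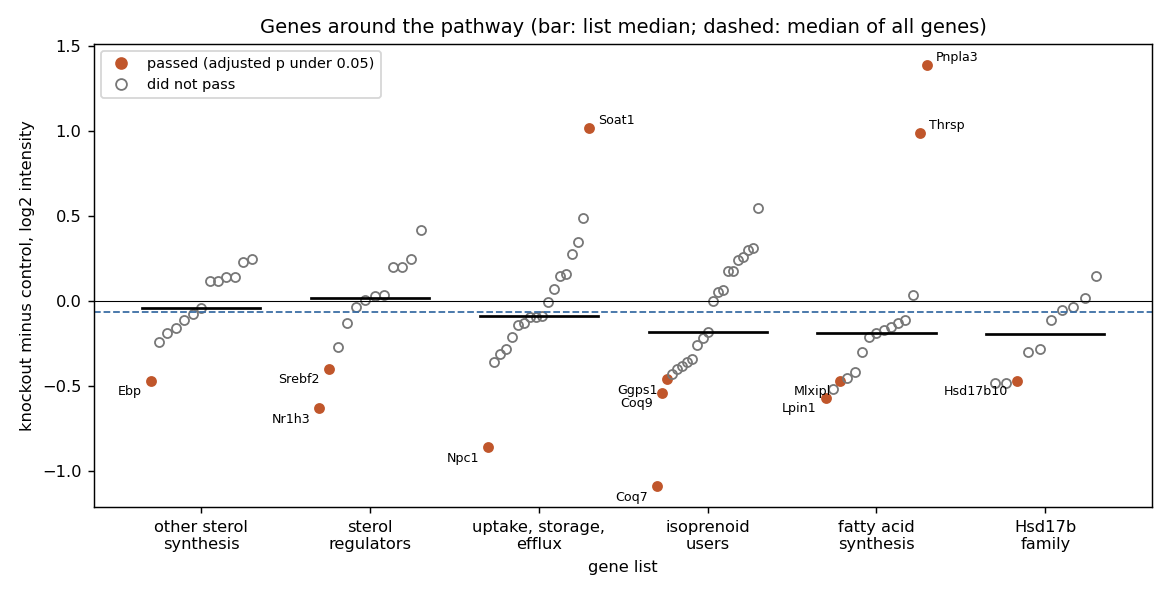
Knockout minus control in log2 intensity (y axis) for each measured gene of 6 lists (x axis); filled points passed limma at an adjusted p under 0.05, open points did not, black bars are list medians and the dashed line is the median of all genes, -0.066. Filled points are Ebp at -0.47, Srebf2 and Nr1h3 below 0, Npc1 at -0.86 and Soat1 at 1.02, Coq7, Coq9 and Ggps1 below 0, Pnpla3 and Thrsp above and Lpin1 and Mlxipl below 0, and Hsd17b10 at -0.47.

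Markers of other cells in the muscle differed too, and their part in the values of the 4 genes was not tested. Schwann cells make much cholesterol for myelin; of 13 measured Schwann and myelin markers 0 rose and 2 fell by limma, with 5 at an unadjusted p under 0.05. These were S100b at 1.72-fold and Mal at 1.58-fold. The S100b call was lost without animal 3 or 4 of either group (adjusted p, limma, 0.0546 to 0.0677), and that of Mal without control animal 2 or 3 or knockout animal 3 or 4 (0.0584 to 0.0968). Their summed intensity per animal was 40536 to 55292 in control and 37447 to 42474 in knockout muscle. Of 11 adipocyte markers 4 fell (Pck1, Lep, Cidec and Cfd) and 1 rose (Cidea, 1.94-fold), with sums of 116671 to 145138 and 98491 to 143163. By limma 7 of the 11 had an unadjusted p under 0.05, and Lep fell at least 1.38-fold to a dim level. Of 15 endothelial markers 3 fell (Gpihbp1, Icam2 and Emcn), with sums of 135462 to 167944 and 88047 to 128701, which do not overlap. By limma 9 of the 15 had an unadjusted p under 0.05. The Cfd call was lost without any single animal other than control animal 1 or 2 (adjusted p, limma, 0.0528 to 0.0948), and that of Emcn without any other than knockout animal 1 or 2 (0.0513 to 0.104). Of 9 smooth muscle markers 3 fell (Tagln, Rgs5 and Acta2) and 1 rose (Lmod1), with sums of 64477 to 79476 and 53089 to 61086. By limma 4 of the 9 had an unadjusted p under 0.05. The Lmod1 call was lost without control animal 1 or 4 or knockout animal 1 (adjusted p, limma, 0.0511 to 0.0544). Of 13 macrophage markers 9 were positive and 4 negative, with a median of 0.21 and overlapping sums of 19551 to 42029 and 24586 to 64148. By limma 3 of the 13 had an unadjusted p under 0.05. Ctss differed by 1.84 (limma, adjusted p = 0.0558), Cd68 by 1.01 (0.305) and Itgam by 0.60 (0.163), and none of these passed. Cd163 alone passed and fell 1.91-fold (limma, adjusted p = 0.049), with groups that overlapped and a call lost without any 1 of 6 animals (0.0656 to 0.13), all but animal 1 of each group. Of 8 satellite cell markers 2 were positive and 6 negative, with sums of 21654 to 23992 and 19980 to 23646. By limma 3 of the 8 had an unadjusted p under 0.05. Calcr alone passed, and fell at least 1.34-fold to a dim level. Cdh15 differed by 0.44 without overlap and did not pass (limma, adjusted p = 0.0638). Of 11 fibroblast markers 0 passed by limma, with 4 at an unadjusted p under 0.05 and sums of 185500 to 264348 and 159225 to 290785. No Schwann, adipocyte or endothelial marker was dim in both groups. The tissue label was matched by fast-fibre genes, of which 9 were measured with sums of 2727018 to 3534221 in control and 2282281 to 3298418 in knockout animals and 0 passed by limma (0 at an unadjusted p under 0.05). Of 7 slow-fibre genes 4 rose (Atp2a2, Tnni1, Casq2 and Tnnt1) and 1 fell (Pln), with sums of 44244 to 55666 and 72190 to 102055. By limma 5 of the 7 had an unadjusted p under 0.05. Atp2a2 differed by 2.05 on the row used, and by -0.44 and 1.80 on its other 2 rows. The Pln call was lost without knockout animal 3 or 4 (adjusted p, limma, 0.0588 to 0.0644). Endothelial and smooth muscle sums were thus separated between groups and lower in the knockout, and slow-fibre sums were separated and higher. Sums of other lists were separated too, and lower in the knockout. Isoprenoid users summed to 249576 to 294496 in control and 200717 to 236558 in knockout animals. Fatty acid synthesis genes summed to 139415 to 147497 and 108252 to 111843, and the Hsd17b family to 57178 to 73044 and 45132 to 50509. Such sums are weighted to the brightest genes of a list.

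The Hira row itself did not pass (8.97 ± 0.11 in control and 8.82 ± 0.35 in knockout, SD, n = 4, log2; limma, adjusted p = 0.623), and the sources used here do not say whether its probe lies in the deleted part, so it is no check of the genotypes. Pearson correlation over the 8 animals was used to name the genes most like the mean standardised level of the 4 members, in which the 2 higher and 2 lower genes largely cancel. The 5 nearest were Kcnk2 (0.959), Ccl25 (0.952), Itgb1bp1 (0.952), Rpl23 (0.933) and Mrpl39 (0.933). With group means removed they were Asb15 (0.987), Kcnk2 (0.976), Med21 (0.974), Fnbp1l (0.969) and Atp6v1g1 (0.965). These are the highest of 17742 genes over 8 points and are given as a description. The mean standardised level was highest in control animal 2 (0.23) and knockout animal 2 (0.31) and lowest in control animal 3 (-0.41) and knockout animal 3 (-0.33).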

How the data were processed

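The authors deposited 1 linear probe intensity per row and array. Scanner, background correction and scaling: not given in the sources used here. The 24 deposited columns share a median of 626.429, and up to 5.37% of an array's values lie at or below 0, which a scaling and a subtraction before deposit would give. The labels name Cy3 as the dye and the labelling protocol Cy5, so the dye is not settled. Intensities below 38.8, the 5th percentile of all values, were raised to that floor before log2 transformation, and each animal's 3 hybridisations were then averaged. Rows were named from GEO's platform annotation, updated through RefSeq (GRCm38.p6): 20377 rows had 1 symbol and 6046 none. The row with the highest mean stood for a gene. Knockout and control animals were tested against each other by limma 3.58.1 under R 4.3.3 (lmFit, eBayes, 17742 genes, Benjamini-Hochberg, threshold 0.05), which was tested on simulated data. A level at or below 125 counts as dim, and folds to it are lower bounds. The number of animals limits precision. The members, the 16 gene lists and the promoter motifs were chosen with earlier results of these data known. Genes named are the members, Hira, the listed sterol enzymes, of each other list up to 4 by smallest p, and the genes of most similar pattern. Srebf1, Scap, Cfd and Pln fall outside this rule and were named after their values were seen. Numbers 1 to 4 follow the order of deposit and pair no animals. Hybridisation numbers were not used to pair arrays in the main test. The median correlation of same-numbered deviations was 0.0421 (lowest -0.632), against -0.0174 between arrays of other numbers. Such values cannot exclude runs shared by some arrays. Alternatives were other scalings, floors, row rules, hybridisation summaries, variance models, blocks, and leaving out animals or hybridisations.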

Additional observations from a re-analysis of the deposited data

Results flagged for a closer look

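Chance alone puts about 1 in 20 groups of 4 past the limit used for a stray animal (Dixon's test at 95%), and 4 of 38 groups passed it among the members, Hira and the other sterol enzymes; none belonged to a member. Control animal 2 stood apart for Ebp (13.18, the next at 12.99) and for Pmvk (11.16, the next at 10.97). Knockout animal 2 stood apart for Dhcr7 (10.72, the next at 10.34), and knockout animal 4 for Sqle (8.41, the next at 9.01).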

How the results depend on the processing

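The differences of Mvd, Hsd17b7, Fdps and Fdft1 kept their sign under all 25 alternatives run. These genes were chosen on this difference and their animals do not overlap, so leaving out an animal or splitting the blocks could not turn the sign. Several other alternatives leave the difference itself as it was. Mvd moved by more than its SD between animals within the lower and the higher block of animal numbers (0.82 and 1.30; 2 animals per group). Leaving out 1 animal or hybridisation number gave 0.97 to 1.13 for Mvd, 0.52 to 0.59 for Hsd17b7, -0.61 to -0.45 for Fdft1 and -0.58 to -0.44 for Fdps. The number of genes changed, 1647, was 2569 under quantile normalization, 3149 with all arrays and the animal as a random block, 2978 with the hybridisation number added as a replicate block, and 62 and 508 in each block of animal numbers alone (a series below). Leaving out 1 animal or hybridisation number gave 945 (without knockout animal 3) to 1693, and 1062 without control animal 1. More genes were lower than higher (888 and 759), but higher outnumbered lower under cyclic loess (1309 and 1154), and in each series (51 and 11, 311 and 197). The same turn came from omitting control animal 1 (578 higher, 484 lower), hybridisation 2 (598 higher, 505 lower) or, among knockouts, number 3 (527 higher, 418 lower) or number 4 (629 higher, 587 lower). Counts for the lists moved as follows. Sterol synthesis (1) was 0 in each series and 0 to 1 with leave-outs. Regulators (2) were 1 with the median of hybridisations and with all arrays (also with the replicate block), 0 in each series and 1 to 2 with leave-outs. Traffic (2) was 1 with the mean over rows and with the median of hybridisations, 4 with all arrays, 0 in the first series and 0 to 2 with leave-outs. Isoprenoid users (3) were 8 under quantile normalization, 9 under cyclic loess, 6 with the dim filter and with an intensity trend, 10 with all arrays, 9 with the replicate block, 5 with the series as a block, 0 and 1 in the series, and 1 (without knockout animal 3) to 5 with leave-outs. Fatty acid synthesis (4) was 7 with all arrays, with or without the replicate block, 0 in each series and 3 to 4 with leave-outs. The cause of these shifts was not tested. No named call reversed. Signal near the dim end limits the second Fdft1 row, Soat1, Ch25h, Lep and Calcr.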
